A study of Mus musculus with 5 samples.

Results

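The genes described here encode 6 TALE homeodomain transcription factors: Meis1, Meis2 and Meis3, Pbx2 and Pbx3, and Pknox1. They were taken by name, as a family. For each gene, every DNaseI hypersensitive site (DHS) within 1 kb of any annotated transcription start site (TSS) of the gene was taken as a promoter site. A site further out was taken if the gene was the nearest protein-coding gene and the site lay inside its body or within 100 kb of its TSS. This gave 81 of the 135173 sites listed over 5 stages, with 12 sites in mesoderm (MES), 19 in hemangioblasts (HB), 28 in hemogenic endothelium (HE), 7 in hematopoietic progenitors (HP) and 15 in macrophages (MAC). No site fell to a further gene as well.

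In DNaseI-seq, open chromatin is cleaved by the nuclease DNase I and the cleaved ends are sequenced. The cells came from a mouse embryonic stem cell line of strain 129 with a green fluorescent reporter of Brachyury (Bry:GFP), differentiated in culture and sorted by surface markers. MES cells were Bry:GFP+ and Flk1-, HB cells Bry:GFP+ and Flk1+, HE cells Tie2+, cKit+ and CD41- (the label adds Bry:GFP+), HP cells CD41+ and MAC cells CD11b+. Each stage is 1 sample with 1 list of intervals (for MAC, the label names a first and a second replicate together), so no spread between replicates can be given and no stage was tested against another. All stages share the 1 cell line, and no label names a treatment. A list gives only where a site starts and ends. Its depth is unknown, and a site that is not listed may still be open in some cells. How many cells have an open site and how open it is in each cell cannot be told apart in such bulk samples.

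MEIS, PBX and PKNOX proteins share a homeodomain with 3 extra residues in its first loop, from which the TALE family takes its name. PBX proteins bind DNA together with HOX proteins and with MEIS or PKNOX proteins, and MEIS and PKNOX partners help to hold PBX in the nucleus. Meis1 is needed for definitive blood formation in the mouse embryo and, together with Hoxa9, drives leukemia. Meis2 acts in the heart, the neural crest and the limb, and Pbx proteins act in the patterning of the trunk.

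The lists differ in length and in width of the sites, and both bear on every count below. They held 17734 sites (HP) to 37456 sites (MAC), and the median width ran from 600 bp (MAC) to 1200 bp (HE). Most sorting markers had a promoter site in the stages they were used to sort. The promoter of T, which encodes Brachyury, was listed in MES and HB, that of Tek (Tie2) in HE, of Itga2b (CD41) in HE and HP, and of Itgam (CD11b) in MAC. Kit had one in every stage but MAC, and Kdr (Flk1) had one in all 5 stages, including the Flk1- MES cells. Itga2b was thus listed in the CD41- HE cells too, and T was not listed at its promoter in HE, whose label names the Bry:GFP reporter. Among markers of other cells, Ptprc (CD45) had a promoter site in MAC only, Epcam in MES and HB, Krt8 in every stage but MAC, and Cd3e and Actc1 in none.

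The 6 genes had the most listed sites in HE and the fewest in HP. Per 1000 sites of a list, the 6 genes took 0.547 sites in MES and 0.768 in HB, 0.841 in HE, then 0.395 in HP and 0.400 in MAC. Per 100 kb of the ground that the assignment gives them, this was 1.38, 2.18, 3.21, 0.803 and 1.72 sites, beside 1.31, 1.45, 1.89, 1.08 and 2.10 sites over the ground of all 21000 protein-coding genes. Pooled over the 6 genes the density was above that of all genes in MES, HB and HE and below it in HP and MAC, but single genes differed. In MES Meis1 (0.838 sites per 100 kb) and Pbx3 (0.918) were below all genes and Meis2 was level with them (1.31). Pbx3 was below all genes in HB (1.38) and HE (0.918) as well. In HP Meis1 (1.26), Meis3 (2.17) and Pknox1 (1.71) were above, and in MAC Meis3 (6.51) and Pknox1 (6.83) were above. Meis1 and Meis2 held most of the sites, with 27 and 22 over the 5 lists, and the other 4 genes held 3 to 12 each. When each list was held to its 17734 widest sites, the length of the HP list, the counts of the 6 genes in the order of the stages were 9, 14, 13, 7 and 5, so that HB then had the most sites and MAC the fewest. Sites tied at the cutoff width were kept in order of chromosome name and position, which bears on these counts.

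**Figure D1:**
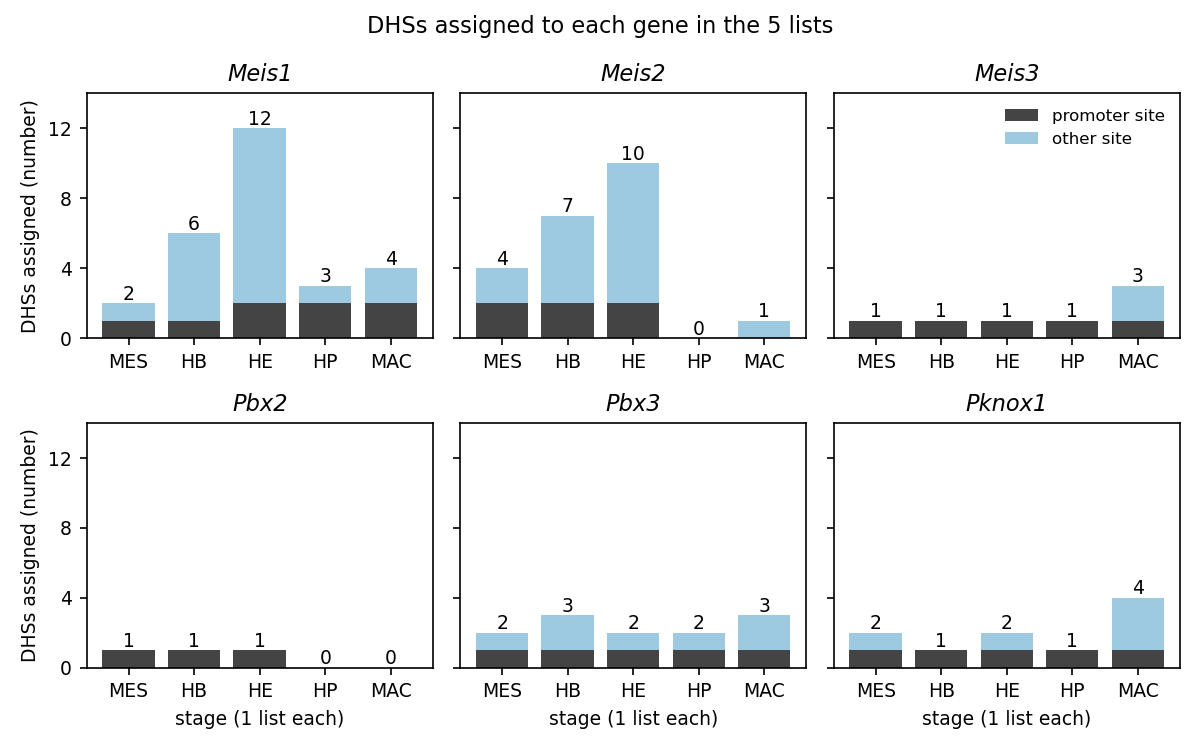
DHSs assigned to each of the 6 genes (number, vertical axis) in the lists of the 5 stages (horizontal axis, 1 list each). Dark bars are promoter sites and light bars are other sites. Meis1 and Meis2 rise to 12 and 10 sites in HE and stand at 3 and 0 in HP, while the other genes stay between 0 and 4.

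Promoter sites were present at all 6 genes in MES, HB and HE and at 4 genes in HP and MAC. Over all protein-coding genes, 57.2% had a promoter site in MES and 58.9% in HB, 61.7% in HE, then 50.1% in HP and 50.2% in MAC. Meis1, Meis3, Pbx3 and Pknox1 had a promoter site in all 5 stages, as did 43.4% of all genes. Meis2 and Pbx2 had one in MES, HB and HE and in neither HP nor MAC, a pattern held by 3.96% of all genes. With the lists held to equal length, the pattern of Meis2 was unchanged, Pbx2 lost its MES site, and Meis1 and Meis3 lost their MAC sites. The lost sites of Pbx2 (400 bp) and Meis3 (600 bp) were as wide as the narrowest sites kept in MES and MAC. They were dropped by the order of chromosome names among ties, and not for being narrower. With a promoter reach of 100 bp in place of 1 kb, Pbx2 had a promoter site in 1 stage, HB, and its pattern was lost.

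Where the site lay at the promoter differed between the genes and, for some, between the stages. Among the 4 genes with a promoter site in all 5 stages, Meis3 and Pknox1 had their curated TSS inside a site at every stage, as did 88.7% of all genes with 5 promoter sites. Meis1 had its curated TSS inside a site in HE, HP and MAC only. Pbx3 had it inside a site at no stage, which was the case for 2.22% of such genes.

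**Figure D2:**
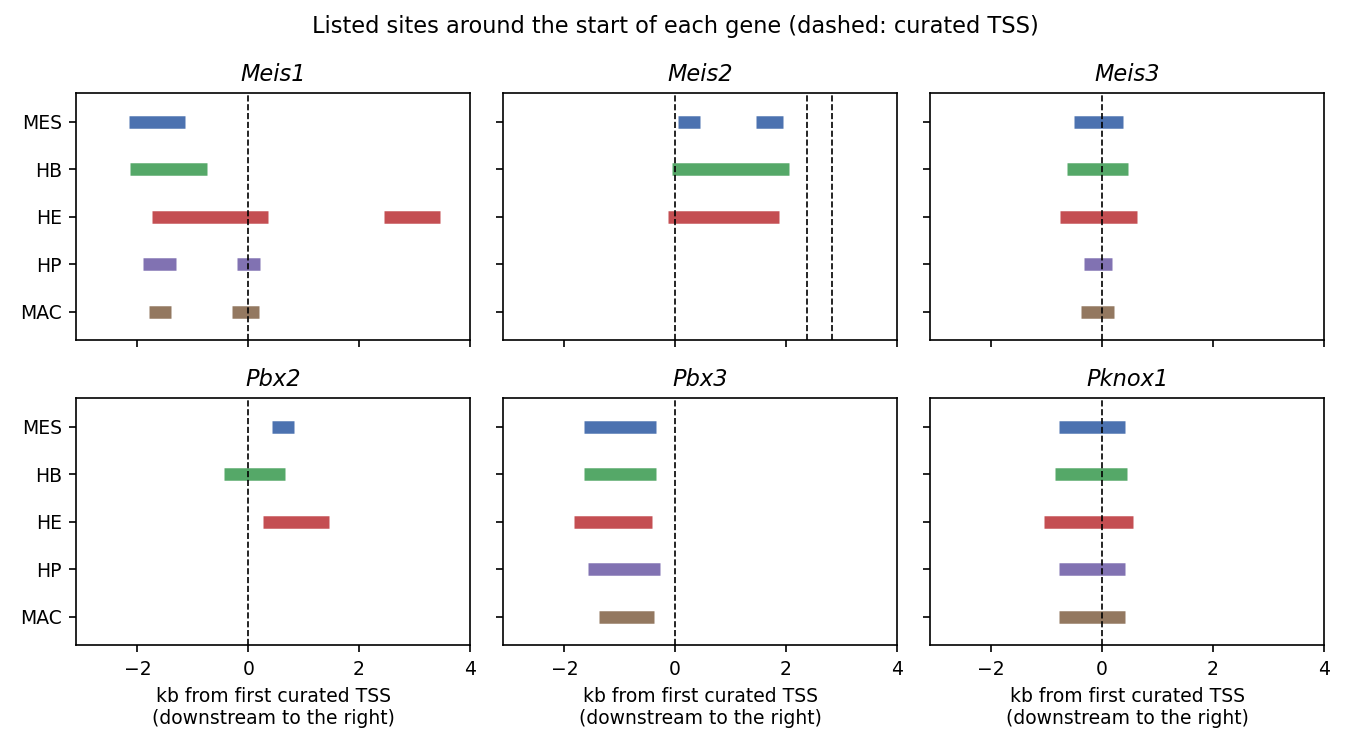
Deposited sites (bars, to scale) around the start of each gene, by stage (rows), in kb from the first curated TSS with downstream to the right. Dashed lines are curated TSS. At Meis1 the sites of MES and HB stop short of the TSS and those of HE, HP and MAC cross it, and at Pbx3 all 5 sites stop 275 to 425 bp short of it.

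Meis1, the best known of these genes in blood, lies on the minus strand at chr11:18880428-19019651 (mm10) and spans 139 kb, with 1 curated TSS at position 19018969. It took 2 sites in MES and 6 in HB, 12 in HE, then 3 in HP and 4 in MAC. Only 51 of the 21000 protein-coding genes had more sites in HE, and 99.7% had fewer. In HP 511 genes had more, and in MAC 1909. These counts are not scaled to ground, of which Meis1 has 239 kb, and more ground can give more sites. Per 100 kb Meis1 had 5.03 sites in HE, beside 1.89 over all genes. The sites of Meis1 covered 1800 bp in MES and 4100 bp in HB, 14300 bp in HE, then 1600 bp in HP and 2000 bp in MAC. In lists of equal length the counts were 2, 3, 5, 3 and 1, so HE still held the most sites, by a smaller margin.

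At the Meis1 promoter an upstream stretch was inside a site at every stage, and the curated TSS was inside a site from HE on. In MES the site was chr11:19020117-19021116, and its near edge was 1148 bp upstream of the curated TSS. In HB it was chr11:19019707-19021106, with the near edge 738 bp upstream. HE had 1 wide site over the TSS, chr11:19018611-19020710, and another inside intron 2 at chr11:19015511-19016510, which counts as a promoter site because a further annotated transcript starts near it. HP had a pair of narrow sites, chr11:19018764-19019163 over the TSS and chr11:19020264-19020863 upstream, and MAC had the same layout at chr11:19018767-19019266 and chr11:19020367-19020766. The MES call rests on an upstream start of a transcript that is not curated, 466 bp from the site. With curated starts alone Meis1 had a promoter site in 4 stages, all but MES.

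The 300 bases that RefSeq gives as the Meis1 promoter, chr11:19018920-19019219 on the minus strand (GRCm38.p6), are shown because they lie inside the HE and MAC sites and mostly inside the HP site, but outside the MES and HB sites. Capitals here and in the sequences that follow mark matches, on either strand, to short consensus words. The MEIS and PKNOX proteins themselves bind the core TGACAG, and PBX with HOX binds TGATTNAT. AGATAA is the word of the GATA factors. RUNX proteins bind TGTGGT. ETS factors bind GGAAGT, TEAD factors bind CATTCC and AP-1 binds TGANTCA. The promoter words CCAAT and, as the GC box, GGGCGG complete the set, with the longer joint word of PBX with MEIS. A match describes the letters and not a bound factor.
Meis1 promoter: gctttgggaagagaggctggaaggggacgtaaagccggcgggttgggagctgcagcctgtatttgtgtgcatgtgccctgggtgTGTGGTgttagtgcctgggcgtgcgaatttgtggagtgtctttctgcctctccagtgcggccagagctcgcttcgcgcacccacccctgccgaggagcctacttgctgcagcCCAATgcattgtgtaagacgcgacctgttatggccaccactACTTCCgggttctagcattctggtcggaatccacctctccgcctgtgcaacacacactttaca
It had 15 CG dinucleotides and a GC share of 58.3%, with 1 match to TGTGGT, another to GGAAGT and a further one to CCAAT. Of 32851 RefSeq promoters of this length, 16.8% held TGTGGT, 23.8% GGAAGT and 37.4% CCAAT.

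Outside the promoter, Meis1 sites lay mostly in introns 6 to 8, in the downstream direction from the TSS. The region open in most stages was in intron 7, 48.9 kb into the gene, at chr11:18969811-18970416. It was absent from MES and listed in the other 4 stages, with a site 300 bp wide in HB and 1500 bp in HE, then 600 bp in HP and 400 bp in MAC. This pattern, HB to MAC without MES, was held by 0.524% of all 68846 merged regions, which join sites whose central 500 bp windows share at least 25% of their length. A second intronic region, 11.0 kb into the gene at chr11:19007667-19008310 in intron 6, was listed in MES (800 bp), HB (800 bp) and HE (1300 bp) and in neither HP nor MAC. A region in intron 8, 93.9 kb into the gene, was listed in HE (900 bp) and MAC (700 bp).

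The central 300 bases of the intron 7 and intron 6 regions are shown because they are the Meis1 regions outside the promoter that were open in most stages, and their stages differ. Both are on the strand of the gene, chr11:18969964-18970263 and chr11:19007839-19008138.
Meis1 intron 7: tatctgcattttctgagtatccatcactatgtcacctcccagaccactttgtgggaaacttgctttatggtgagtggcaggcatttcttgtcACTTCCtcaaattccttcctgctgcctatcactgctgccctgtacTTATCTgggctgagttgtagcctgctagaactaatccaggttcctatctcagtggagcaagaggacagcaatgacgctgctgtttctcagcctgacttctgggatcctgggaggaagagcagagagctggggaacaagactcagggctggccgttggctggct
Meis1 intron 6: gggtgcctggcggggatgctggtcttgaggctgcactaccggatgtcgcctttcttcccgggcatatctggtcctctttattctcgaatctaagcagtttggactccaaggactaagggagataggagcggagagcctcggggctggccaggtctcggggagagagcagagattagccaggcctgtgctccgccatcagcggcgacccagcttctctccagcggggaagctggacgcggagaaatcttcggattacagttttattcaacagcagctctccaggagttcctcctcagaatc
The intron 7 sequence had 1 match each to AGATAA and GGAAGT, words held by 18.2% and 33.6% of the central 300 bases of the 51806 regions outside promoters. It had 2 CG dinucleotides and a GC share of 51.0%. The intron 6 sequence had none of the words searched, and it had 15 CG dinucleotides and a GC share of 57.7%.

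Of the 15 merged regions of Meis1, 7 were open in HE only. They lay at 81.0, 77.7, 71.3, 55.5 and 2.96 kb into the gene, and 0.691 and 93.1 kb upstream of the TSS. The widest site of Meis1 away from the promoter was among them, 1600 bp at chr11:18962711-18964310 in intron 7. The region 0.691 kb upstream is the middle of the wide HE promoter site, and the HB promoter interval overlaps it. No Meis1 region was open in MAC only, and 1 was open in HB only, 61.6 kb into the gene.

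Meis2, on the minus strand at chr2:115861264-116067537, spans 206 kb and has 3 curated TSS. It took 4 sites in MES and 7 in HB, 10 in HE, then none in HP and 1 in MAC. Of the 21000 protein-coding genes, 8711 had no site in HP and 6154 had 1 in MAC. In HB 116 genes had more sites and 99.1% had fewer, and in HE 104 had more and 99.2% had fewer. These counts are not scaled to ground, of which Meis2 has 306 kb. Per 100 kb Meis2 had 2.29 sites in HB and 3.27 in HE, beside 1.45 and 1.89 over all genes. Genes with at least 10 sites in HE made up 0.757% of all genes, or 159 genes, a cutoff chosen after the count of Meis2 was seen. Their medians were 6.0 sites in HB, 4.0 in HP and 8.0 in MAC. Of these 159 genes 3.77%, or 6, had no site in HP: Meis2, Ptprg, Ptprm, Sall1, Spink13 and Tns1. In lists of equal length Meis2 had 3 sites in MES, 6 in HB, 3 in HE and none in HP or MAC, so that the most sites were then in HB. Meis2 then fell below the cutoff of 10 sites in HE, and the share of genes without a HP site was not recomputed.

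**Figure D3:**
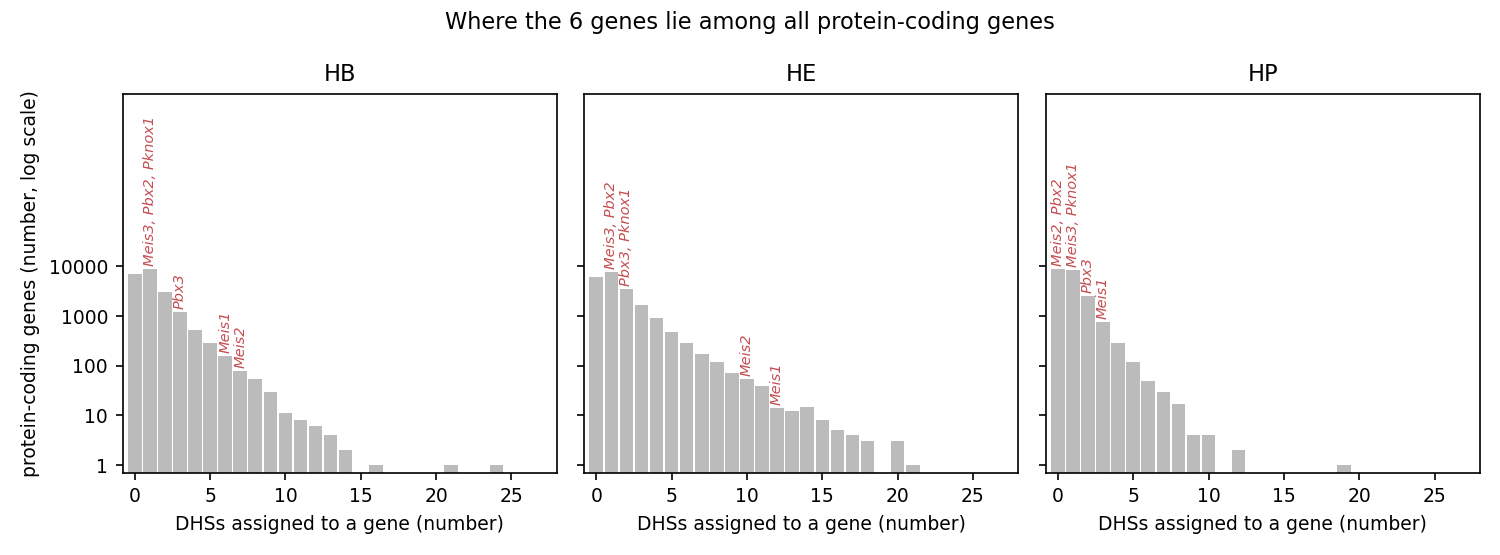
Number of protein-coding genes (vertical axis, log scale) by the number of DHSs assigned to a gene (horizontal axis) in HB, HE and HP, with each of the 6 genes written above its bar. Meis1 and Meis2 lie in the upper tail in HB and HE, and in HP Meis2 is among the 8711 genes with 0 sites. Counts are not scaled to the ground of a gene.

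The Meis2 promoter was open over a stretch that widened from MES to HB. MES had a pair of narrow sites inside the gene, chr2:116065491-116065990 and chr2:116066991-116067390, the latter ending 54 bp short of the first curated TSS. HB had 1 site of 2100 bp, chr2:116065398-116067497, and HE had 1 of 2000 bp, chr2:116065570-116067569, both of which cross that TSS and overlap both MES sites. A second promoter site near an annotated start in intron 3 was listed in HB (chr2:116061898-116062597) and in HE (chr2:116061270-116062769). In HP the site nearest to any curated Meis2 TSS was 482400 bp away. In MAC the nearest was chr2:116071525-116071824, a site of 300 bp whose edge was 4081 bp upstream of the first curated TSS.

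Of the 16 merged regions of Meis2, 6 were open in HE only, 2 in MES only, 2 in HB only and 1 in MAC only. Both MES-only regions are at the promoter, where the wider HB and HE intervals overlap them. The HE-only regions lay at 154, 111, 68.4, 62.4 and 17.6 kb into the gene and 61.6 kb upstream. A region in intron 8, 46.3 kb into the gene, was listed in HB (900 bp) and HE (1300 bp), and one in intron 10, 188 kb into the gene, in MES (800 bp) and HB (700 bp). The widest site away from the promoter was 800 bp in MES, at chr2:115879291-115880090 in intron 10. It was 1000 bp in HB, at chr2:116010098-116011097, and 1300 bp in HE, at chr2:116020370-116021669, both in intron 8.

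Away from the promoter, the Meis2 region open in most stages lay 8.54 kb upstream of the first curated TSS, at chr2:116075720-116076247. It was listed in MES (600 bp), HB (800 bp) and HE (1000 bp) and in neither HP nor MAC, like the intron 6 region of Meis1. Its central 300 bases, chr2:116075834-116076133 on the strand of the gene, are shown for that comparison.
Meis2 upstream: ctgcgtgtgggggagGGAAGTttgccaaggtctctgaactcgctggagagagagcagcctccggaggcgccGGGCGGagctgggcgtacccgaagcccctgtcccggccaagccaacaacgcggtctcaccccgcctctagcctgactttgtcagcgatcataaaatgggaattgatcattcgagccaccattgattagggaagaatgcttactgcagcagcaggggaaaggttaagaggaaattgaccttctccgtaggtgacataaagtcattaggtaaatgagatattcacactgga
This sequence had 15 CG dinucleotides and a GC share of 54.3%. It had 1 match each to GGAAGT and GGGCGG, words held by 33.6% and 10.2% of central 300 bases outside promoters.

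Meis3, the shortest of the Meis genes at 12.5 kb, lies on the plus strand at chr7:16174012-16186510. It took 1 site in each stage from MES to HP and 3 in MAC. The promoter site lay over the curated TSS at position 16175395 in every list, with a width of 900 bp in MES and 1100 bp in HB, 1400 bp in HE, then 500 bp in HP and 600 bp in MAC. HE was widest and HP narrowest, and HE sites were the widest overall. Both other sites were in MAC only, each 400 bp wide, 7.79 and 14.6 kb upstream, the farther one inside the neighbouring gene Slc8a2.

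The RefSeq promoter of Meis3, chr7:16175145-16175444 on the plus strand, is shown because it lay wholly inside a site at all 5 stages.
Meis3 promoter: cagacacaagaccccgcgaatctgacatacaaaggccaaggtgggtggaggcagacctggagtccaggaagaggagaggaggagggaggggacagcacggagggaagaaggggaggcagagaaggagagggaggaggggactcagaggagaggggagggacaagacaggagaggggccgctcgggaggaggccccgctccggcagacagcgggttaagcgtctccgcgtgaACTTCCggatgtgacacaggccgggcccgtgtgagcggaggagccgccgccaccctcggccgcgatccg
It had 21 CG dinucleotides, a GC share of 66.7% and 1 match to GGAAGT.

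Pbx2 lies on the plus strand at chr17:34592259-34597400, 5.14 kb long, with close neighbours. The TSS of Gpsm3 is 2.45 kb away on one side and that of Ager 5.59 kb on the other, so only 4.02 kb of ground could give a site to Pbx2 as nearest gene. It took 1 site in each of MES, HB and HE and none in HP or MAC, all at the promoter. Among all protein-coding genes, 8711 had no site in HP and 7025 had none in MAC. The MES site of Pbx2 was 400 bp wide at chr17:34592692-34593091 and began 433 bp downstream of the TSS. The HB site, chr17:34591829-34592928, was 1100 bp wide and crossed the TSS. The HE site, chr17:34592524-34593723, was 1200 bp wide and began 265 bp downstream. In HP and MAC the nearest sites ended 4268 and 4472 bp upstream of the TSS.

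The RefSeq promoter of Pbx2, chr17:34592009-34592308 on the plus strand, is shown because it was inside a site in HB alone.
Pbx2 promoter: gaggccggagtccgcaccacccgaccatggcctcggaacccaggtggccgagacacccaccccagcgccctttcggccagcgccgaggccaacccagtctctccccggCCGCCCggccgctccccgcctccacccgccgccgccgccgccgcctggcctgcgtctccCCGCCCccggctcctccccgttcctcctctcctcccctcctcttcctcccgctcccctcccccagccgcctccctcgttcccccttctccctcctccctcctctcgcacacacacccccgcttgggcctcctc
With 29 CG dinucleotides and a GC share of 76.0% it was the richest in both of the sequences shown. It had 2 matches to GGGCGG, a word held by 35.7% of RefSeq promoters.

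Pbx3, on the minus strand at chr2:34171457-34372045, spans 201 kb and kept nearly the same sites through all stages. It took 2 sites in MES and 3 in HB, 2 in HE, then 2 in HP and 3 in MAC. The promoter site had a width of 1300 bp in MES, HB and HP, 1400 bp in HE and 1000 bp in MAC. Its near edge lay upstream of the curated TSS by 346 bp in MES and 353 bp in HB, 425 bp in HE, then 275 bp in HP and 380 bp in MAC. A promoter reach of 100 bp in place of 1 kb therefore left Pbx3 with a promoter site in no stage.

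The other region of Pbx3 open at all 5 stages was in intron 2, 122 kb into the gene, at chr2:34249441-34250069. Its site was 600 bp wide in MES and 800 bp in HB, 1500 bp in HE, then 800 bp in HP and 400 bp in MAC. Of the 32 regions of the 6 genes outside promoters, it was the one open in every stage. How common this is among all regions outside promoters was not counted. HB and MAC each had 1 further site, 600 bp wide, 12.3 and 11.7 kb into the gene, and the MAC site (chr2:34360025-34360624) was the widest of Pbx3 outside the promoter in that list. The central 300 bases of the shared region, chr2:34249606-34249905 on the strand of the gene, are shown because no other region of the 6 genes away from a promoter was listed throughout.
Pbx3 intron 2: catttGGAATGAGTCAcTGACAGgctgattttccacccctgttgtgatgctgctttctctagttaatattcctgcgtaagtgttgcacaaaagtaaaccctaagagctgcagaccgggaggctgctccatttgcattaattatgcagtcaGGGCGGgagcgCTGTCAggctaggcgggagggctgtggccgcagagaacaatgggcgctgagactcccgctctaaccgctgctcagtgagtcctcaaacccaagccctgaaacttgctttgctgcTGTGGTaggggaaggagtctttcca
This sequence had 9 CG dinucleotides and a GC share of 53.0%. It had 2 matches to TGACAG, 1 on each strand, and 4.58% of the central 300 bases outside promoters had 2 or more. There was 1 match to TGTGGT (held by 25.8% of such sequences), 1 to CATTCC (19.6%), 1 to TGANTCA (20.8%) and 1 to GGGCGG (10.2%). The matches to CATTCC (read on the other strand) and TGANTCA overlap.

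**Figure D4:**
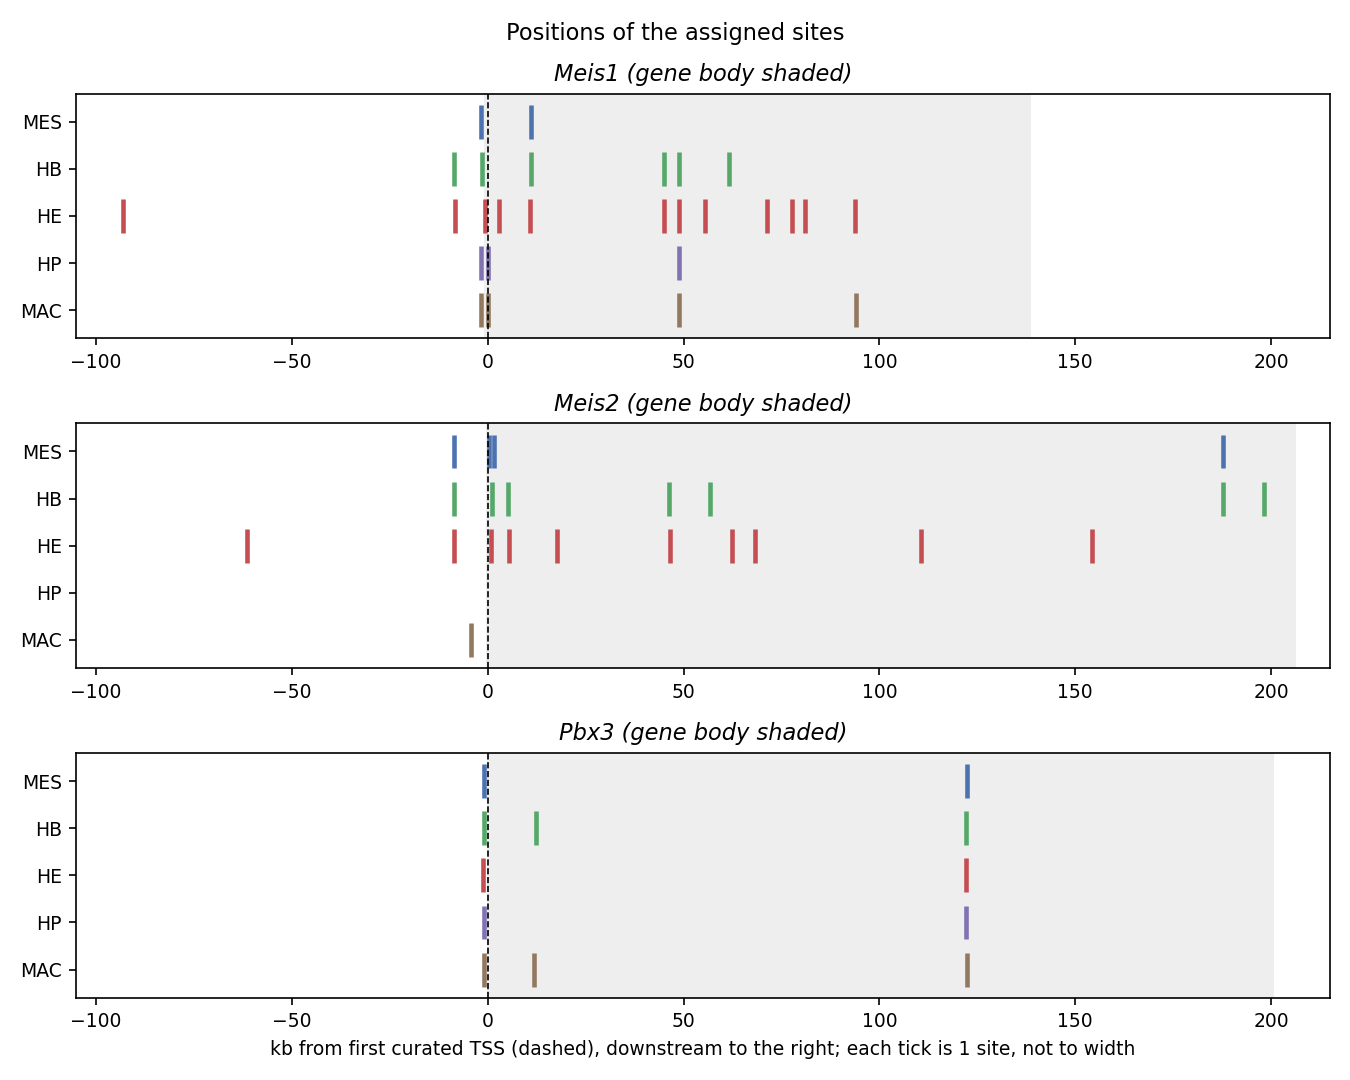
Centres of the assigned sites (ticks, not to width) at Meis1, Meis2 and Pbx3 by stage (rows), in kb from the first curated TSS (dashed), with the gene body shaded. HE has the most ticks at Meis1 and Meis2 and HP has 3 and 0 there, whereas at Pbx3 the promoter and the tick 122 kb into the gene recur in all 5 rows.

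Pknox1, which encodes a partner of PBX closely related to the MEIS proteins, lies on the plus strand at chr17:31564722-31607693 and spans 43.0 kb. It took 2 sites in MES and 1 in HB, 2 in HE, then 1 in HP and 4 in MAC. The promoter site crossed the curated TSS in every list and varied little in width, with 1200 bp in MES, HP and MAC, 1300 bp in HB and 1600 bp in HE. In intron 1, 5.83 kb into the gene, MES had a site of 300 bp (chr17:31570292-31570591) and HE one of 500 bp (chr17:31570524-31571023), which overlapped. The 3 remaining regions were open in MAC only, at 10.1 and 14.7 kb in intron 1 and 30.1 kb in intron 5, and the last was the widest of them at 700 bp (chr17:31594488-31595187).

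Together the 81 sites formed 45 merged regions, 13 at promoters and 32 elsewhere. Regions open in 1 stage made up 27 of the 45, or 60.0%, beside 60.2% of all merged regions. HE-only regions numbered 13 (28.9%, beside 17.1% of all regions), and all were at Meis1 or Meis2. MAC-only regions numbered 7 (15.6%, beside 31.0%), of which 3 were at Pknox1, 2 at Meis3 and 1 each at Meis2 and Pbx3. Regions open in HB and HE and no other stage numbered 5 (11.1%, beside 1.91%), again all at Meis1 or Meis2. Regions open in all 5 stages numbered 4 (8.89%, beside 13.2%), at the promoters of Meis3, Pbx3 and Pknox1 and in intron 2 of Pbx3. Outside promoters 10 of the 32 regions (31.2%) were open in MAC, beside 51.9% of all such regions. By direct overlap of the deposited intervals, 7 of the 45 regions, all at the promoters of Meis1, Meis2 and Pbx2, gained 1 or more stages, because windows around the middle split wide sites.

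The step at which the 6 genes kept the smallest share of their regions was HE to HP, which was also the step with the smallest share over all regions. Of 12 regions open in MES, 8 were open in HB (66.7%, beside 81.5% of all regions), and of 19 in HB, 12 were open in HE (63.2%, beside 63.7%). From HE to HP, 5 of 28 were kept (17.9%, with a 95% Wilson interval of 7.88 to 35.6%), beside 42.9% of all regions. Such an interval takes regions as independent, which these 28 are not, since 12 lie at Meis1 and 10 at Meis2. It is therefore a description and no test. All 7 regions open in HP were open in MAC as well (100%, interval 64.6 to 100%), beside 66.2%. Counted by direct overlap of deposited sites, 11 of 12 MES sites met a HB site (91.7%, beside 82.9% of all MES sites). For HB sites, 14 of 19 met a HE site (73.7%, beside 69.4%). Of 28 HE sites, 6 met a HP site (21.4%, beside 45.5%), and all 7 HP sites met a MAC site (beside 67.3%).

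Of the 23 regions open in HE and not in HP, 11 were at Meis1 and 10 at Meis2. Meis1 kept 1 of 12 regions, or 2 of 12 by direct overlap, and Meis2 kept 0 of 10 by either count. Pbx2 kept 0 of 1, Pknox1 1 of 2, Pbx3 2 of 2 and Meis3 1 of 1. At promoters 3 of 8 regions of the 6 genes were kept (37.5%, beside 69.1% of all promoter regions), and elsewhere 2 of 20 (10.0%, beside 26.2%). By direct overlap 4 of the 8 promoter sites in HE met a HP site, because the wide Meis1 site of HE, which the windows count as lost, overlaps both HP promoter sites. In lists of equal length the share kept from HE to HP was 38.5% for the 6 genes and 64.6% for all regions, so both rose and the 6 genes remained the lower. HP had the shortest list, and its part in this drop was not tested beyond the equal lists.

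**Figure D5:**
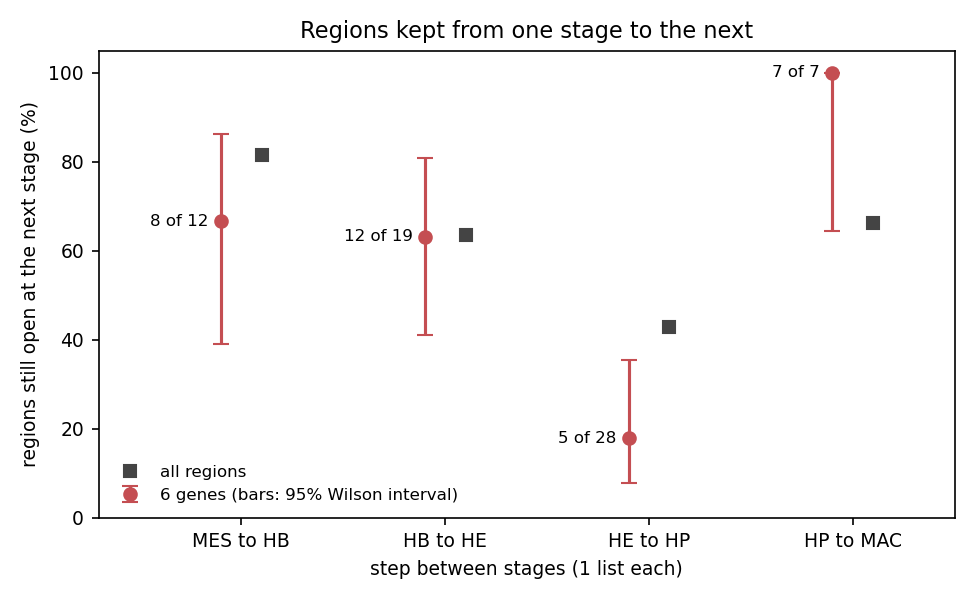
Share of regions open at one stage that were also open at the next (vertical axis, %), for regions of the 6 genes (circles with 95% Wilson intervals and counts) and for all regions (squares). The intervals take regions as independent, which they are not, since many share a gene, so they are no test. From HE to HP the 6 genes kept 5 of 28 regions, the smallest share of the 4 steps.

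Median base composition was close to that of regions elsewhere in the genome. In the central 500 bp, the 13 promoter regions had a median GC share of 59.6%, beside 62.2% of all 17036 promoter regions, and the 32 others 47.0%, beside 48.4%. Regions rich in CG dinucleotides made up 10 of 13 at promoters (76.9%, beside 64.8%) and 3 of 32 elsewhere (9.38%, beside 2.92%). TGACAG, the word of the MEIS and PKNOX proteins themselves, was present in 3 of 13 promoter regions (23.1%, beside 25.6%) and 13 of 32 others (40.6%, beside 38.6%). TGATTNAT was found in 2 of the 32 (6.25%, beside 6.23%) and in none of the 13, and the joint word of PBX with MEIS in none of the 45. AGATAA was found in 9 of the 32 (28.1%, beside 27.4%), GGAAGT in 16 (50.0%, beside 44.4%), TGTGGT in 9 (28.1%, beside 37.4%) and CATTCC in 11 (34.4%, beside 29.3%). Of the remaining words, GGGCGG was found in 7 of the 32 (21.9%, beside 14.2%), TGANTCA in 7 (21.9%, beside 27.4%) and CCAAT in 13 (40.6%, beside 46.5%).

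The genes with the most similar counts were found by summing, over the 5 stages, the absolute difference in assigned sites. For Meis1 they were Daam1 and Egfl7, at a summed difference of 3, and Rora at 4. In the order of the stages Daam1 had 1, 5, 13, 3 and 4 sites, Egfl7 3, 6, 10, 3 and 4, and Rora 4, 6, 11, 3 and 5. Daam1 and Rora had a promoter site in all 5 stages, as Meis1 did, and Egfl7 in MES, HB and HE only. For Meis2 they were Sall1 at 3, and Hand2 and Has2 at 4. Sall1 had 5, 7, 11, 0 and 0 sites in the order of the stages. Hand2 had 5, 7, 10, 2 and 2, and Has2 had 4, 5, 10, 2 and 1. Sall1 and Has2 had a promoter site in MES, HB and HE only, as Meis2 did, and Hand2 had one in HE only. Pbx3 had the same counts as 5 genes (8030462N17Rik, Ext2, Faim, Pdik1l and Sec31a) and Pknox1 the same as 6 (Cpe, Msl3, Pptc7, Spsb1, Taldo1 and Zmiz2). The counts of Meis3 were shared by 264 genes and those of Pbx2 by 236.

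A list of 11 other TALE genes (Pbx4, Pknox2, Tgif1, Tgif2, Mkx and Irx1 to Irx6) was counted in the same way. Of these, 9 had a promoter site in MES and 11 in HB, 11 in HE, then 5 in HP and 3 in MAC, and their sites numbered 24, 35, 37, 10 and 26. Pknox2, the paralog of Pknox1, had 3, 6, 3, 1 and 1 sites and a promoter site in MES, HB and HE only, and Pbx4 had 2 sites and a promoter site at every stage. Among 7 Hox genes whose products pair with PBX or MEIS (Hoxa5, Hoxa7, Hoxa9, Hoxa10, Hoxb3, Hoxb4 and Hoxb6), a promoter site was listed for 4 in MES and 3 in HB, 5 in HE, then 3 in HP and 1 in MAC. Their sites numbered 6, 7, 13, 5 and 2. These counts of both lists are not scaled to the length of the stage lists, and the shares of all genes with a promoter site given above, 50.2% in MAC for example, apply to them as well. Hoxa9, with only 8.18 kb of ground, had 2 sites in HE and none in any other stage, and neither site was at its promoter.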

How the data were processed

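DNaseI-seq was carried out on 5 sorted populations, 1 sample each. According to the study's methods, the authors used CutAdapt to trim the reads and Bowtie to align them to mm10, took only unique alignments without Picard duplicates, and ran DFilter with 100 bp bins to find the sites. Versions, and whether the MAC replicates were pooled before calling, are not given in the sources used here. The deposited files hold the first and last position of each site in bp and neither scores nor counts, so depth is unknown.

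Sites were assigned with the RefSeq annotation of GRCm38.p6 (mm10, strain C57BL/6J). The nearest gene was that of the nearest TSS of a curated protein-coding transcript to the middle of the site. Windows of 500 bp around the middles that shared at least 25% of their length were joined. Regions rich in CG dinucleotides were those with at least 0.5 of bases G or C and an observed to expected CpG ratio of 0.6 or more. Named regions were all promoter regions, other regions open in 4 or 5 stages, and per gene and stage the widest other site, and the remaining ones were named after their values were seen. The 6 genes, the gene lists and the motifs were chosen with earlier results of these data known. Assignment and merging were tested on simulated sites (Python 3.11.15). No test was run, and 10 alternative settings were tried.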

Additional observations from a re-analysis of the deposited data

How the results depend on the processing

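Of 81 recomputed values (sites per stage, genes with a promoter site per stage, and merged regions), 65 stayed within 1.5 times the value given and 16 did not. Counts of sites followed the strictness of the lists. Lists without the sites narrower than their median width held 6 sites in MES and 8 in HB, 13 in HE, then 2 in HP and 6 in MAC. The same lists gave 20 merged regions, 2 of them open in 5 stages and 13 in 1 stage, and 2 genes with a promoter site in HP. With the 17734 widest sites of each list HE had 13 sites and MAC 5, with 24 merged regions, 2 open in 5 stages and 12 in 1 stage, and 2 genes with a promoter site in MAC. These lists hold fewer sites by construction, and in the lists of widest sites ties at the cutoff width were settled by chromosome name and position. A promoter reach of 100 bp left 3 genes with a promoter site in MES. It left Pbx2 with a promoter site in 1 stage and Pbx3 in none. Of 79 further values, for single genes and the share kept from HE to HP, 13 moved by more than 1.5 times, all of them under these 3 settings. Assignment by the nearest gene body, a limit of 50 kb, curated starts alone, windows in place of deposited intervals, a promoter reach of 2 kb and both other ways of merging moved no such value by more than 1.5 times. No paired analysis was possible because each stage is 1 sample. Assignment to the nearest gene does not show which gene a site acts on, and the depth that limits each list is unknown.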
